A study of Mus musculus with 11 samples.

Results

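A set of 10 genes that neutrophils express late in their development was followed in RNA from whole distal tibiae of control mice and of mice that express diphtheria toxin A in bone marrow adipocytes. Ltf, Camp, Ngp, Lcn2 and Chil3 encode proteins stored in or released with the later granules, S100a8 and S100a9 encode the main cytosolic proteins of the neutrophil, Retnlg encodes a small secreted protein of the resistin family, and Cxcr2 and Csf3r encode surface receptors. The members were taken by their gene symbols, and all 10 were found among the 22600 genes of the merged count table and among the 16496 genes tested. Levels are given in CPM, a gene's counts relative to the total of its library, after scaling by the trimmed mean of M values (TMM). None of the 10 differed between the genotypes past the threshold, and the fitted differences, given on the log2 scale as BMAd-DTA minus Control, lay between -0.25 for Cxcr2 and 0.0088 for Retnlg.

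The libraries came from 4 Control and 7 BMAd-DTA mice of strain C57BL6/SJL, aged 24 weeks and fed ad libitum, with 1 library per mouse, and they are numbered here in the order of their deposition. The labels give the genotype of the Control mice as BMAd-WT. Per the study's methods, the bone marrow adipocyte Cre depends on FLPo made from the Osterix gene, which turns on a Cre placed at the Adipoq gene, and in BMAd-DTA mice this Cre removes a stop cassette before diphtheria toxin A at the Rosa locus. The same source states that all experimental mice carried both the FLPo and the Cre alleles, so the Controls have them too. The toxin is therefore directed at adiponectin-expressing cells of the Osterix lineage and not at neutrophils, and the study states that this Cre works less well in young mice. The bone was ground whole, so marrow, bone, periosteum and attached muscle all contribute RNA, and a smaller number of neutrophils and less RNA per neutrophil cannot be told apart.

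The libraries held 16969529 to 18637663 counts. Adipocyte genes were lower on average in BMAd-DTA libraries, with a median log2 difference of -1.20. Of the 8 examined, 0 passed an adjusted p under 0.05 in edgeR and 0 in DESeq2. At an unadjusted edgeR p under 0.05, 4 were lower in BMAd-DTA, as were 8.53% of all genes tested. Skeletal muscle RNA set some libraries apart within both genotypes, with summed CPM of 12 muscle genes from 18.0 to 1351 in Control and from 19.9 to 1049.9 in BMAd-DTA. Control 4 and BMAd-DTA 2, 3 and 5 were the libraries poor in muscle RNA. The labels give no sex; Xist had 13810 to 20260 counts in each library and the Y-linked genes examined had at most 1, which goes against the male mice that the study's legends describe for these experiments.

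Neutrophils are made in the bone marrow through a fixed series of stages, and the proteins of their granules are made one class after another: primary (azurophil) granule enzymes in promyelocytes, specific granule proteins in myelocytes and metamyelocytes, and gelatinase granule proteins and surface receptors as the cells become band cells and mature neutrophils. C/EBP family factors and PU.1 drive many of these genes, and C/EBP epsilon is needed for the specific granules. Bone marrow holds a large reserve of nearly mature neutrophils, which stay there under CXCL12 and CXCR4 and leave when CXCR2 ligands and granulocyte colony-stimulating factor rise.

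The bases before the start sites of 5 members are shown because they hold letters that C/EBP or PU.1 proteins bind elsewhere. They were copied from RefSeq on GRCm38.p6, in which all 10 members matched by symbol, and each runs 5′ to 3′ on the gene's own strand up to the first base annotated as exon. Capitals mark matches to TTGCNNAA, a core of the C/EBP motif, or to GAGGAA, a core of the PU.1 motif, each searched on both strands. Ltf lies at chr9:111019042-111019270 (plus strand), Ngp at chr9:110419558-110419746 (plus strand), S100a9 at chr3:90695722-90695971 (minus strand), Retnlg at chr16:48872358-48872607 (plus strand) and Cxcr2 at chr1:74153744-74153988 (plus strand).
Ltf: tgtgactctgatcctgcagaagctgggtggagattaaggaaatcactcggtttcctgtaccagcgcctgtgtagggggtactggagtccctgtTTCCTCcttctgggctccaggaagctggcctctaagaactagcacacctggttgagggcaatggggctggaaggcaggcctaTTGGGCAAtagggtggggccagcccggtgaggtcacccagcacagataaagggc
Ngp: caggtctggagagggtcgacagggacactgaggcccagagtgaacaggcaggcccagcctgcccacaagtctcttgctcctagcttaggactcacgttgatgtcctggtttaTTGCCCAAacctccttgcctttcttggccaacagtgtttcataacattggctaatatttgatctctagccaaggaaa
S100a9: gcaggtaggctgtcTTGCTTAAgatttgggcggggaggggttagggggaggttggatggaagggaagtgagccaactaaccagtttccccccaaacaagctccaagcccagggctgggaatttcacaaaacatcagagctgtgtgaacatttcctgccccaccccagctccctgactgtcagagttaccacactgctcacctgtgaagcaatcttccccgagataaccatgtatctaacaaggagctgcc
Retnlg: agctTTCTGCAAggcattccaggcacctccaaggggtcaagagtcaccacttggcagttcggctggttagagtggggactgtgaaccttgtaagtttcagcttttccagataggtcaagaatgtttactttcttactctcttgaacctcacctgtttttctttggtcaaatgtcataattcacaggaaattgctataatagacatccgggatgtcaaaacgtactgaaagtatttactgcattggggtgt
Cxcr2: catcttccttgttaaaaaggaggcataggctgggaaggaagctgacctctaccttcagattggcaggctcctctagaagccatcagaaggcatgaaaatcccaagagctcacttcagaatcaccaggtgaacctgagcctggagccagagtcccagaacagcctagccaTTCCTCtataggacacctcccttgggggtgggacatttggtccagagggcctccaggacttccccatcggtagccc

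In the whole window of 250 bases before each start site, TTGCNNAA was found in 5 members, Ltf, Ngp, Lcn2, S100a9 and Retnlg, against 9.56% of the 32851 RefSeq windows. It began 75 bases before the start of Ltf and 138 and 11 bases before that of Ngp. The nearer Ngp match lies in bases annotated as exon and is not printed. The Lcn2 match lies in annotated exon too, as do 197 of the 250 bases of the Lcn2 window. The looser pattern TTNNGNAA, which contains every TTGCNNAA match, was found in 7 members against 36.8% of windows. GAGGAA was found in Ltf, Lcn2, S100a8, Cxcr2 and Csf3r, 5 members against 23.3% of windows. The matches in Lcn2 and Csf3r, and the nearer match in S100a8, lie in bases annotated as exon. GGAAGT, another core bound by ETS factors such as PU.1, was found in 4 members against 19.7% of windows, and TATAAA in 1, S100a8, against 12.4%. Camp, which encodes the antimicrobial peptide cathelicidin, and Chil3 held neither TTGCNNAA nor GAGGAA in this window. In the Camp window 161 bases are annotated as exon. Neither the counts of members nor the shares of windows leave out exonic bases. These are matches of letters, and nothing was measured at these sites.

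Per length of exon, the 10 members spanned a wide range of levels, with S100a9 and Ngp at the top and the 2 receptors at the bottom. On the scale of CPM per kilobase of exon, S100a9 had the highest mean level, 8153 ± 834 (SD, n = 11), and Ngp followed with 7445 ± 893, with library ranges that overlapped. S100a8 had 4130 ± 383, its highest library below the lowest of Ngp, and Camp had 1946 ± 299.9. Retnlg, Lcn2 and Ltf lay at 1023 ± 136, 952 ± 87.6 and 786 ± 95.3, and each overlapped the next. Chil3 had 385 ± 75.0, and the receptors Csf3r and Cxcr2 had 143 ± 27.8 and 50.5 ± 7.95, none of them overlapping its neighbours in this order. Unscaled counts of a member ranged from 1892 to 180791 in a library, so the spread that counting alone gives was 0.249% to 1.92%, below the spread between libraries of every member. The coefficient of variation between libraries was 4.96% for Cxcr2 to 25.8% for Chil3 in Control, and 9.78% for S100a9 to 19.1% for Csf3r in BMAd-DTA.

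**Figure D1:**
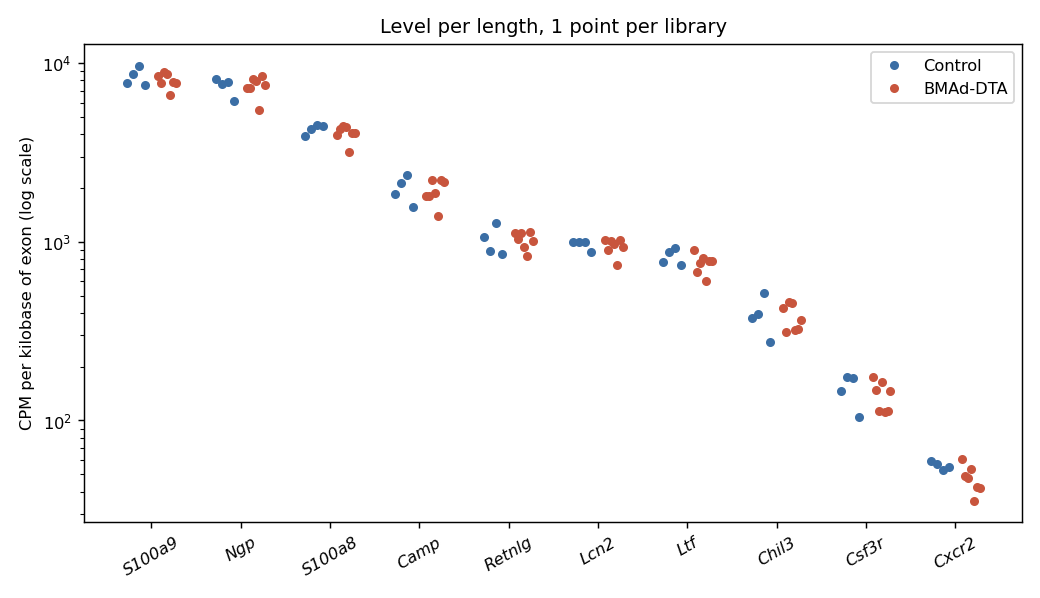
Level of each member in CPM per kilobase of exon (log axis), 1 point per library, Control in blue and BMAd-DTA in red, genes in order of their mean. The order runs from S100a9 at a mean of 8153 to Cxcr2 at 50.5, and within each gene the points of both genotypes overlap.

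Lactoferrin, the iron-binding protein encoded by Ltf (ENSMUSG00000032496.7, chr9:111019271-111042767 on GRCm38, plus strand), is the defining content of specific granules. Ltf was 2674, 3036, 3203 and 2571 CPM in Control 1 to 4 and ran from 2086 through a median of 2693 to 3115 CPM in BMAd-DTA. All but 2 BMAd-DTA libraries, numbers 2 and 5, lay within the Control range. The fold was 0.912 (95% interval 0.774 to 1.08), and the edgeR adjusted p was 0.604. Ltf carries one of the TTGCNNAA matches shown above.

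Camp (ENSMUSG00000038357.10, chr9:109847379-109849617, minus strand) was 1400.4, 1627, 1784 and 1186 CPM in Control and ran from 1059 through 1426 to 1683 CPM in BMAd-DTA. Only BMAd-DTA 5 lay outside the Control range, below it. The log2 difference was -0.037 ± 0.14 (SE), with an edgeR adjusted p of 0.927. Ngp (ENSMUSG00000032484.8, chr9:110419747-110423012, plus strand) encodes neutrophilic granule protein, a relative of the cathelicidins and cystatins. It was 9964, 9298, 9574 and 7522 CPM in Control and 6725 to 10327 CPM in BMAd-DTA, with a median of 9261. Both the highest and the lowest of the 11 libraries were BMAd-DTA, 6 and 5, so the Control range lay inside the BMAd-DTA range. The log2 difference of Ngp was 0.0021 ± 0.13 (SE) and its edgeR adjusted p was 0.995. Camp, Ngp and Ltf lie on the same chromosome, with 570130 bases between Camp and Ngp and 596259 between Ngp and Ltf. The ratio of Ngp to Camp CPM was 5.37 to 7.11 in Control and 5.62 to 6.79 in BMAd-DTA, so it overlapped as well.

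Lcn2 (ENSMUSG00000026822.14, chr2:32384633-32388252, minus strand) encodes lipocalin 2, a specific granule protein that binds bacterial siderophores. Its levels in Control were 2604, 2624, 2622 and 2292 CPM, and in BMAd-DTA they ran from 1934 through 2535 to 2696 CPM. BMAd-DTA 1, 3 and 6 were above every Control library and BMAd-DTA 5 was below every one. The log2 difference was -0.035 ± 0.098 (SE), edgeR adjusted p = 0.902. Chil3 (ENSMUSG00000040809.10, chr3:106147554-106167564, minus strand) encodes the chitinase-like protein Ym1, which neutrophil precursors and some macrophages make. Chil3 was 615, 641, 849 and 449 CPM in Control, a wider spread than in BMAd-DTA, where it was 511 to 754 CPM with a median of 595. Every BMAd-DTA library lay within the Control range, the log2 difference was -0.037 ± 0.16 (SE), and the edgeR adjusted p was 0.940. Pairs mapping to several places were not counted, so Chil3, which has close relatives in the mouse genome, is measured with less certainty.

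S100a8 (ENSMUSG00000056054.9, chr3:90668978-90670035, plus strand) and S100a9 (ENSMUSG00000056071.12, chr3:90692632-90695721, minus strand) encode the subunits of calprotectin, which binds calcium and withholds zinc and manganese from microbes, and are separated by 22597 bases. S100a8 was 2704, 2954, 3139.9 and 3069 CPM in Control and 2196 to 3085 CPM in BMAd-DTA, with a median of 2826. BMAd-DTA 5 alone was below the Control range and no library was above it. The log2 difference was -0.079 ± 0.098 (SE; edgeR adjusted p = 0.747). S100a9 was 4040.3, 4526, 5050.2 and 3941 CPM in Control and 3455 to 4659 CPM in BMAd-DTA, with a median of 4097. Here too BMAd-DTA 5 alone was below the Control range, and the fold was 0.952 (0.814 to 1.11; edgeR adjusted p = 0.795). The ratio of S100a9 to S100a8 CPM was 1.28 to 1.61 in Control and 1.36 to 1.62 in BMAd-DTA.

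Retnlg (ENSMUSG00000022651.6, chr16:48872621-48874496, plus strand), resistin-like gamma, was 630, 528, 752 and 506 CPM in Control and 492 to 670 CPM in BMAd-DTA, with a median of 614. BMAd-DTA 5 was below the Control range and the other BMAd-DTA libraries were inside it. Its log2 difference was 0.0088 ± 0.12 (SE), edgeR adjusted p = 0.981. The gene for resistin itself, Retn, which adipocytes make in mice, passed the test in the same libraries: it was 6.77 to 9.86 CPM in Control and 2.12 to 3.89 CPM in BMAd-DTA, and fell by 1.38 on the log2 scale (SE 0.17; edgeR adjusted p = 0.0205), with 7 of 7 BMAd-DTA libraries below every Control library. Retnla, a macrophage product, was 1.59 to 3.09 CPM in Control and 1.04 to 13.7 CPM in BMAd-DTA (edgeR adjusted p = 0.381). Retnlb was absent from the merged count table, so it was not tested. No gene, Retn included, was called in edgeR when Control 1, Control 2, BMAd-DTA 1 or BMAd-DTA 6 was left out. The differences of Retn and Retnlg were not tested against each other.

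**Figure D2:**
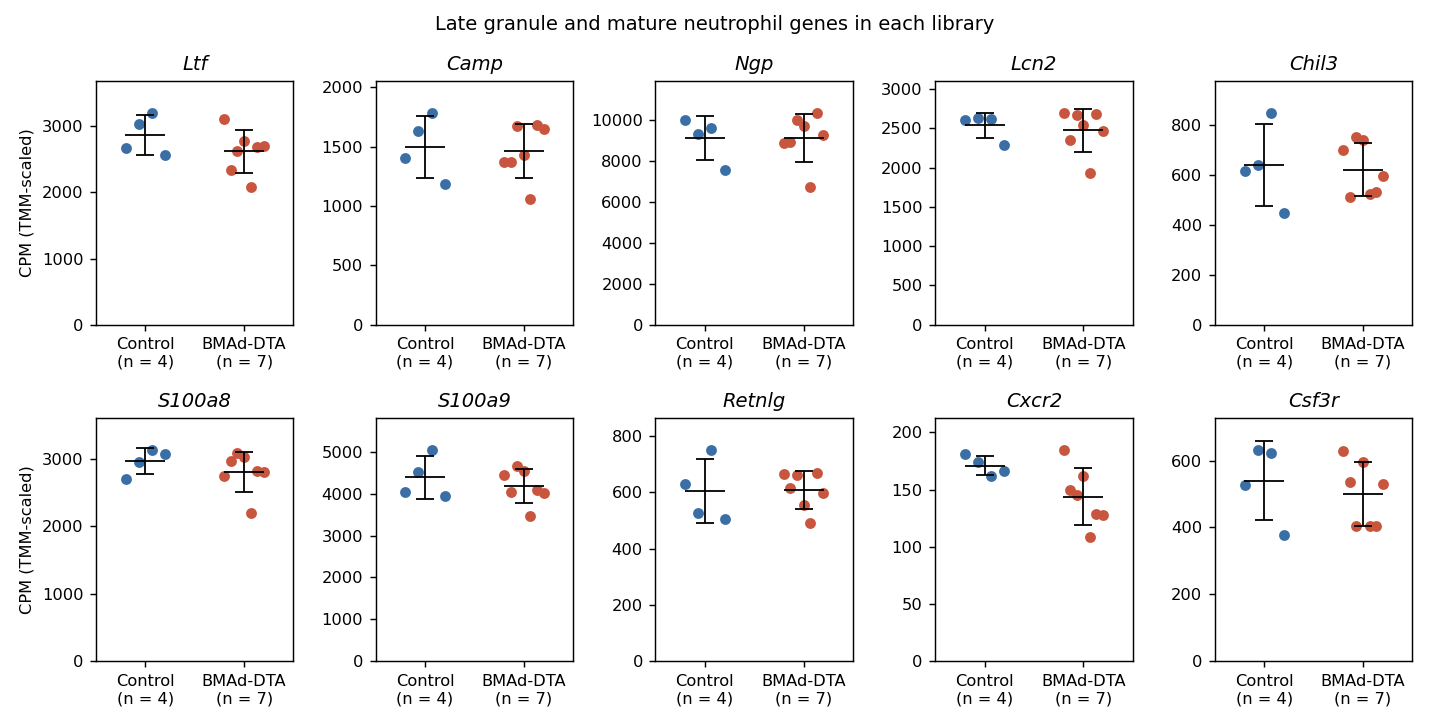
CPM of each member in each library, 1 panel per gene, Control (n = 4) in blue and BMAd-DTA (n = 7) in red, with the mean as a long bar and 1 SD as whiskers. In all 10 panels the genotypes overlap; Cxcr2 has 5 of 7 BMAd-DTA points below every Control point.

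Cxcr2 (ENSMUSG00000026180.8, chr1:74153989-74161246, plus strand), the receptor for CXCL1, CXCL2 and related chemokines, had the largest difference of the 10 members. It was 181, 174, 162 and 166 CPM in Control, a coefficient of variation of 4.96%. In BMAd-DTA it was 109 to 185 CPM with a median of 145, a coefficient of variation of 17.5%. BMAd-DTA 2, 3, 5, 6 and 7 were below every Control library, BMAd-DTA 4 was inside the Control range at 162 CPM and BMAd-DTA 1 was above it. The log2 difference was -0.25 ± 0.12 (SE; 95% interval -0.50 to 0.0029), a fold of 0.842. The unadjusted edgeR p was 0.0523 and the adjusted p over all genes tested was 0.310, and an exact permutation test of the mean log2 CPM over the 330 possible splits gave a two-sided p of 0.0758. Over the alternatives other than leaving out a library, the adjusted p of Cxcr2 ranged from 0.262 to 0.622, and without BMAd-DTA 1 it was 0.165, so no setting called it. Its unadjusted p fell on both sides of 0.05 over the alternatives. It ran from 0.0071 (edgeR without BMAd-DTA 1) to 0.178 (edgeR on the libraries rich in muscle RNA alone).

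Relative to the other 9 members, Cxcr2 ranged from 5.87 to 7.60 CPM per 1000 CPM of their sum in Control (median 6.97) and from 4.98 to 7.35 in BMAd-DTA (median 5.75), so the groups overlapped on this scale as well. Csf3r (ENSMUSG00000028859.14, chr4:126024550-126044440, plus strand) encodes the receptor for granulocyte colony-stimulating factor. It was 527, 633, 622 and 378 CPM in Control and 404 to 628 CPM in BMAd-DTA, with a median of 530.1. Every BMAd-DTA library lay within the Control range, whose low end was Control 4, and the fold was 0.927 (0.728 to 1.18; edgeR adjusted p = 0.795).

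Beside all genes tested, the members showed no excess of calls by any of these rules. In edgeR 0 of the 10 had an adjusted p under 0.05, against 13 of 16496 genes (0.0788%), and 0 had an unadjusted p under 0.05, against 16.4% of genes (7.89% higher and 8.53% lower in BMAd-DTA). In DESeq2 0 of the 10 had an adjusted p under 0.05, against 5.42% of 15583 genes. None had groups that did not overlap, against 2.81% of genes. With 10 genes, a count of 0 beside shares this small does not set the members apart. The median absolute log2 difference was 0.054 for the members and 0.14 for all genes tested. Of the 10, 8 were fitted lower in BMAd-DTA, beside 8189 of all 16496 genes. The median log2 difference was -0.054 for the members and 0.0018 for all genes. The members varied largely together between libraries, so their directions are not separate observations. The 95% intervals give the differences compatible with these libraries: from -0.39 to 0.31 for Chil3, from -0.46 to 0.24 for Csf3r and from -0.25 to 0.18 for Lcn2.

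The members differed between libraries of the same genotype, and largely together. Summed over the 10, their level was 25340.4, 26041, 27758 and 22078 CPM in Control and ran from 18982 through 25386 to 26648 CPM in BMAd-DTA. BMAd-DTA 5 was the lowest library for 8 of the 10 members, all but Chil3 and Csf3r, which were lowest in Control 4. Control 3 was the highest for 6, namely Ltf, Camp, Chil3, S100a8, S100a9 and Retnlg. The members held 2.28% to 2.77% of the counts in Control libraries and 1.92% to 2.63% in BMAd-DTA libraries. The mean difference of the summed level was -785 CPM, and it was 138 CPM without BMAd-DTA 5 and 33.0 CPM without Control 3.

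With each genotype centred on its own mean, all 45 pairs of members correlated positively over the 11 libraries, with a median Pearson r of 0.61. The range was from 0.16 for Camp and Cxcr2 to 0.90 for Ngp and Lcn2. The mean r with the other members was highest for S100a9 (0.71) and Lcn2 (0.71) and lowest for Csf3r (0.45) and Cxcr2 (0.46), the receptors. These values share libraries, depth and scaling between the genes, and BMAd-DTA 5 is low in most of them, so they are a description.

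**Figure D3:**
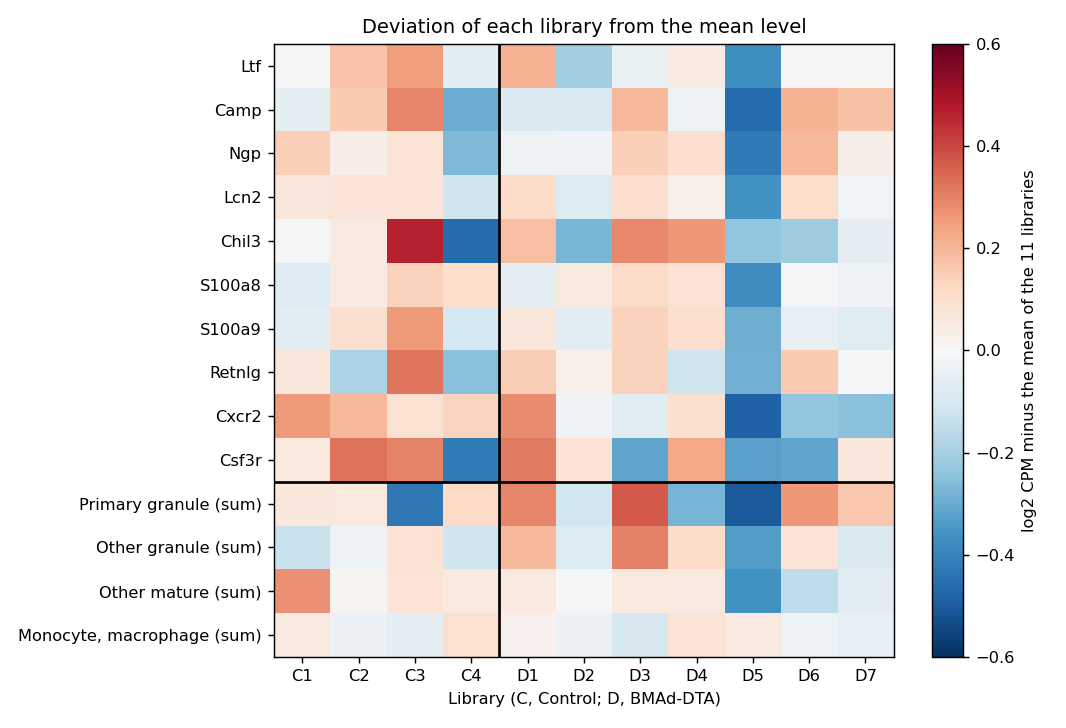
Deviation of each library (columns, C for Control and D for BMAd-DTA) from the mean log2 CPM of the 11 libraries, for the 10 members (upper rows) and for the summed CPM of other lists (lower rows), blue for lower and red for higher. The D5 column is blue in every member, and C3 is red in every member but blue for the primary granule sum.

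Genes whose library pattern was most like the mean of the members, among 12963 genes that averaged 50 counts or more per library, were Sfxn5 (group-centred Pearson r = 0.97 over 11 libraries), B430306N03Rik (0.96), Sipa1l2 (0.95), Cdk5r1 (0.94), Gm39556 (0.92), Mmp8 (0.90), Kif1b (0.90), Vsir (0.90) and Il18r1 (0.89). Of these, Mmp8 encodes neutrophil collagenase, a specific granule protein, and it ranked number 7. Their log2 differences between genotypes ran from -0.18 for Sfxn5 to 0.15 for Gm39556, and the lowest edgeR adjusted p among them was 0.474, for Il18r1.

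Primary granule genes mark the earlier promyelocyte stage, and none of the 5 differed past the threshold in edgeR or DESeq2, nor at an unadjusted edgeR p under 0.05. The log2 difference was 0.10 for Mpo, which encodes myeloperoxidase, 0.10 for Elane, which encodes neutrophil elastase, and 0.055 for Prtn3, which encodes proteinase 3. It was -0.031 for Ctsg, which encodes cathepsin G, and -0.0077 for Ms4a3, a marker of granulocyte and monocyte progenitors. Their median was 0.055, beside -0.054 for the late genes. Summed, the 5 were 2948 to 4318 CPM in Control and 2801 to 5125 CPM in BMAd-DTA, so the genotypes overlapped.

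The ratio of the summed late members to the summed primary granule genes was 6.11, 6.29, 9.42 and 5.11 in Control and ran from 5.20 through 5.57 to 7.95 in BMAd-DTA. Control 3 was the highest of the 11 libraries, with high late and low primary genes, and Control 4 was the lowest. On the log2 scale the ratio was 2.71 ± 0.37 (SD, n = 4) in Control and 2.59 ± 0.23 (SD, n = 7) in BMAd-DTA, a difference of -0.12 that was smaller than either SD and that became 0.052 without Control 3. BMAd-DTA 5 was low in both classes, and its ratio of 6.78 lay inside the Control range.

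**Figure D4:**
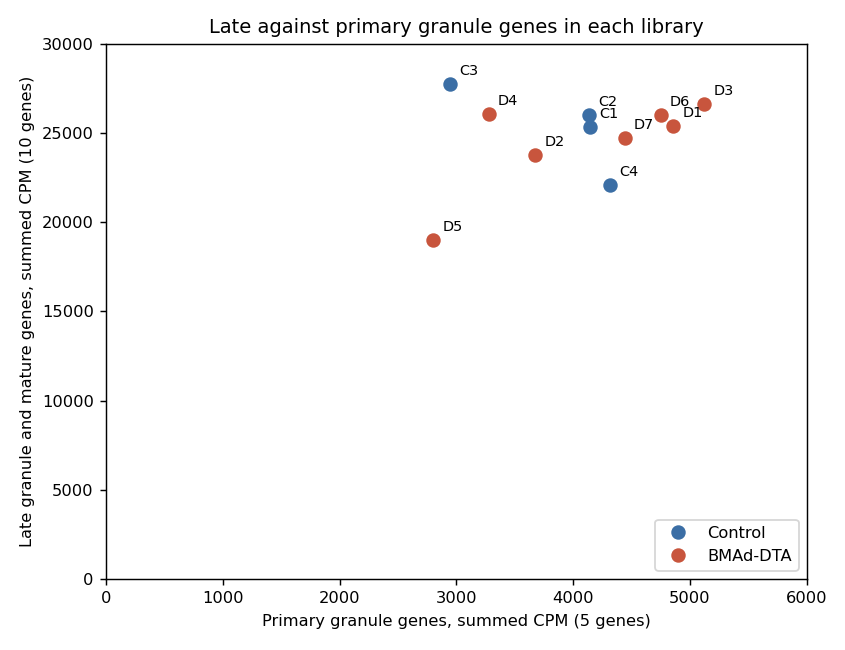
Summed CPM of the 10 late members against that of the 5 primary granule genes in each library, both axes from 0, Control in blue and BMAd-DTA in red. D5 (BMAd-DTA 5) is low on both axes at 2801 and 18982 CPM, and C3 (Control 3) pairs the highest late sum, 27758 CPM, with a primary sum of 2948 CPM.

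Other granule genes gave 0 calls among 11 in edgeR and 0 in DESeq2, with 1 at an unadjusted edgeR p under 0.05, against 16.4% of all genes. The log2 differences furthest below 0 were those of Ly6g (-0.16), the antigen used to sort mouse neutrophils, Cybb (-0.14), the catalytic subunit of the phagocyte NADPH oxidase, and Itgb2l (-0.14), an integrin beta chain of granulocytes. Those furthest above 0 were Fcnb (0.055), a ficolin, Cyba (0.16), the partner subunit of Cybb, and Mmp9 (0.45), gelatinase B, which osteoclasts make as well. Cyba was 218 to 239.6 CPM in Control and 241 to 292 CPM in BMAd-DTA, with an edgeR adjusted p of 0.225. For Cyba 7 of 7 BMAd-DTA libraries were above every Control library, and 2.81% of all genes had groups that did not overlap. Mmp9 had an edgeR adjusted p of 0.308.

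Other genes of mature neutrophils gave 0 calls among 12 in edgeR and 1 in DESeq2 (Fcgr4), against 5.42% of all genes in DESeq2. At an unadjusted edgeR p under 0.05 there were 4, all of them fitted lower in BMAd-DTA, where 8.53% of all genes were. Fcgr4, an activating Fc receptor of neutrophils and monocytes, had the lowest log2 difference, -1.59 (edgeR adjusted p = 0.0992). Its level was 187 CPM in Control 1 and 67.7 CPM in Control 4, while Control 2 and 3 at 24.6 and 28.1 CPM lay within the BMAd-DTA range of 20.4 to 34.8 CPM. Fpr1, a receptor for bacterial formyl peptides, was 46.4 to 48.2 CPM in Control and 32.6 to 45.1 CPM in BMAd-DTA. Its groups did not overlap, as for 2.81% of all genes, and its log2 difference was -0.20 with an edgeR adjusted p of 0.222. The remaining members at an unadjusted p under 0.05 were Fpr2 at -0.22 and Mxd1, a transcriptional repressor of maturing granulocytes, at -0.23 on the log2 scale. Fpr1 and Fpr2 were named after their values were seen. Il1b was at -0.33, and the members furthest above 0 were Stfa2l1 (0.039), Il1r2 (0.075) and Clec4d (0.28).

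**Figure D5:**
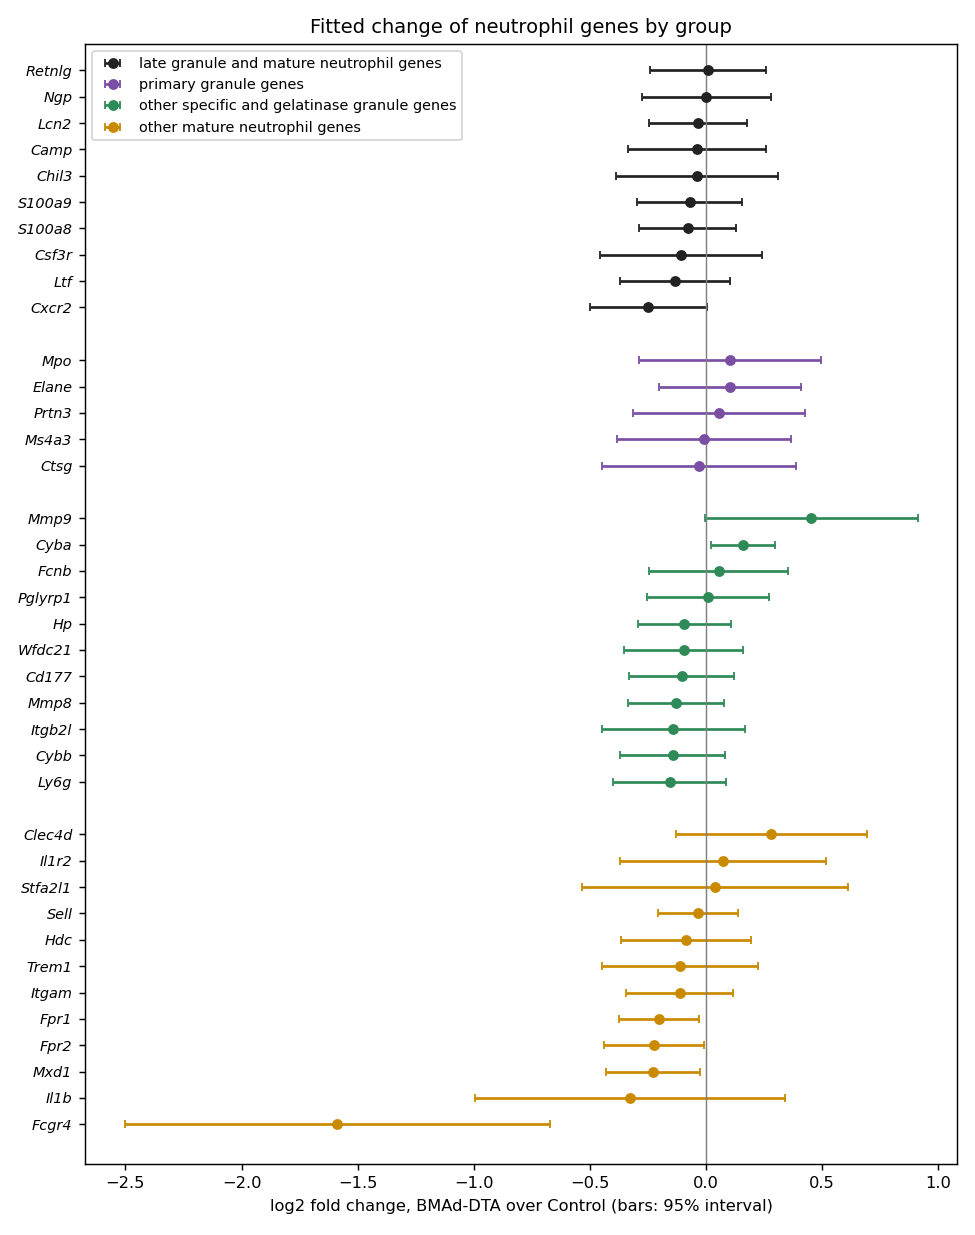
Log2 difference (BMAd-DTA over Control) from edgeR with its 95% interval for the 10 members in black, 5 primary granule genes in purple, 11 other granule genes in green and 12 other mature neutrophil genes in orange. The interval of every member includes 0, that of Cxcr2 ending at 0.0029, and Fcgr4 stands at -1.59.

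The transcription factors of the granulocyte lineage gave no call: 0 of 7 passed in edgeR or DESeq2 and 0 had an unadjusted edgeR p under 0.05. Cebpe, needed for specific granules, was at 0.043, and Cebpa, needed for the earlier granulocyte commitment, was at -0.12 on the log2 scale. Cebpb was at -0.054, Cebpd at -0.064, Gfi1 at -0.075, Spi1, which encodes PU.1, at -0.027 and Runx1 at -0.10. Their summed level was 798 to 847 CPM in Control and 725 to 895 CPM in BMAd-DTA.

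Among the genes for ligands of the member receptors and of CXCR4, Csf3, Cxcl1, Cxcl2 and Cxcl3 had few counts, whereas Ppbp and Cxcl12 had many. Csf3, the gene for granulocyte colony-stimulating factor, was at 0 counts in 9 of 11 libraries and had 5 counts in all, in Control 1 and 3. Cxcl3 had 0 to 7 counts and was not tested. Cxcl1 was 0.236 to 0.532 CPM in Control and 0.17 to 2.64 CPM in BMAd-DTA, from 3 to 46 counts per library, with 6 of 7 BMAd-DTA libraries above every Control library (log2 difference 1.78; edgeR adjusted p = 0.146). Cxcl2 was 0.104 to 0.496 CPM in Control and 0.426 to 1.91 CPM in BMAd-DTA (1.82; edgeR adjusted p = 0.107). DESeq2 called both, where it called 5.42% of all genes. In edgeR 0 of the 5 ligand genes tested were called, and 2 had an unadjusted p under 0.05, against 16.4% of all genes. Cxcl5 was 7.56 ± 2.27 CPM (SD, n = 4) in Control and 6.56 ± 2.04 CPM (SD, n = 7) in BMAd-DTA, a log2 difference of -0.21. Ppbp, a chemokine of platelets and megakaryocytes, was 526 to 1019 CPM in Control and 438 to 865 CPM in BMAd-DTA, a log2 difference of -0.15. Cxcl12, the ligand of CXCR4 that holds neutrophils in the marrow, was at 3357 ± 658 CPM (SD, n = 4) in Control and 3404 ± 723 CPM (SD, n = 7) in BMAd-DTA, a log2 difference of 0.020.

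Genes of other classes followed the members to different degrees within the genotypes. The members' mean log2 CPM was set against the log2 summed CPM of each list (group-centred, 11 libraries that share depth and scaling). Pearson r was 0.84 for the other granule genes, 0.67 for the other mature neutrophil genes and 0.62 for the transcription factors. For the primary granule genes it was 0.27, and for 10 monocyte and macrophage genes -0.49. A sum follows its most abundant genes. With 12 skeletal muscle genes r was 0.62. Of the muscle genes 0 of 12 passed in edgeR and 0 in DESeq2, 0 had an unadjusted edgeR p under 0.05, and all 12 were fitted lower in BMAd-DTA, with a median log2 difference of -0.93. In the 7 libraries rich in muscle RNA, 3 Control and 4 BMAd-DTA, the log2 difference was -0.19 for Cxcr2 (edgeR adjusted p = 0.622) and -0.13 for Chil3, and 0 of the 10 members were called. With the muscle score as a covariate Cxcr2 was at -0.23 (edgeR adjusted p = 0.413). The part of muscle RNA in the members' levels was not tested beyond these fits.

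Summed over 10 genes, monocyte and macrophage markers were 2436 to 2699 CPM in Control and 2375 to 2683 CPM in BMAd-DTA. They gave 0 calls in edgeR and 1, Cd68, in DESeq2, against 5.42% of all genes in DESeq2. At an unadjusted edgeR p under 0.05 there were 2, against 16.4% of all genes. They went in opposite directions, Cd68 at 0.43 and Adgre1 at -0.30 on the log2 scale. Osteoblast and osteocyte genes were 2796 to 12788 CPM in Control and 15079.8 to 35736 CPM in BMAd-DTA over 8 genes. Of these edgeR called 1 (Alpl), against 0.0788% of all genes, and DESeq2 6, against 5.42%. All 8 were fitted higher in BMAd-DTA. CPM of the members are shares of a total that includes these genes, and the part of this in the members' values was not tested.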

How the data were processed

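Strand-specific paired-end mRNA sequencing was done on whole distal tibiae, with 4 Control and 7 BMAd-DTA mice. The authors checked reads with FastQC 0.11.9, aligned them to mm10 with STAR and deposited counts per gene without normalization, per library and merged into a single table whose values equal the read-strand counts of the per-library tables (0 differences). The annotation release is not given in the sources used here; 99.9% of identifiers matched GENCODE M21 on GRCm38, used for positions and exon lengths. Pairs that mapped to several places in the genome, 6.68% to 9.07% of each library, are not in the counts.

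The quasi-likelihood test of edgeR 4.0.16 under R 4.3.3 was applied to the merged counts after its filterByExpr step and TMM scaling. It was two-sided, with Benjamini-Hochberg adjusted p-values across the 16496 genes that passed and 0.05 as their threshold. The SE is the log2 fold change over the square root of F, and 95% intervals use the t distribution of that fit. The same steps were run on simulated counts drawn independently for each gene and library. Those counts hold no differences in tissue content between libraries, so they do not test the fit under such differences. DESeq2 1.42.0, limma 3.58.1 (voom), other scalings, no filter on low counts, a muscle covariate and leaving out each library were alternatives. Exact permutation tests used all 330 splits, with 0.00303 as the smallest p they can give. Sums, ratios and correlations are descriptions. The replicates are 1 library per mouse, and no pair of libraries agreed within sampling noise.

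The text names all 10 members, every gene of the primary granule, transcription factor, ligand and resistin-like lists, the called genes and the 3 highest and 3 lowest differences of the other neutrophil lists, and the 10 genes most like the members' mean, of which 1 is not reported here. The members and lists were chosen with earlier results of these data known. Sequences came from RefSeq (GRCm38.p6), and motifs were counted in 250 bases before 32851 start sites.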

Additional observations from a re-analysis of the deposited data

Results flagged for a closer look

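Values that stood apart from the rest of their own group by Dixon's test were 10 of the 120 series examined, and chance alone flags about 1 in 20 groups. Among the members, BMAd-DTA 5 was far below the other BMAd-DTA libraries for Ngp (6725 CPM, group median 9261), S100a8 (2196 CPM, group median 2826) and the summed level of the 10 members (18982 CPM, group median 25386). Lcn2 was 2292 CPM in Control 4, while the other Control libraries were 2604 to 2624 CPM. In Control 3, Ms4a3 was low at 76.6 CPM, the summed primary granule genes were low at 2948 CPM and Il1r2 was high at 25.1 CPM. In BMAd-DTA 6, Cyba was high at 292 CPM and the summed eosinophil markers were high at 7301 CPM, against a group median of 2984. In Control 1, the summed osteoblast and osteocyte markers were low at 2796 CPM, against a group median of 11177.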

How the results depend on the processing

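No member was called in any of the 20 alternative settings, 200 combinations of member and setting, of which 173 kept the direction and 27 did not; the lowest adjusted p was 0.165, for Cxcr2 without BMAd-DTA 1. Cxcr2, Ltf and S100a8 were fitted lower in BMAd-DTA in every setting, and Cxcr2 ranged from -0.32 to -0.19 with single libraries left out. The members that turned direction were each within 1 SE of 0 in the reported fit. With the muscle score as a covariate Camp was at 0.050, Lcn2 at 0.0097, Chil3 at 0.052 and Csf3r at 0.0020. Ngp was at -0.0020 in limma-voom and -0.0087 by library size alone, and Retnlg at -0.0025 by library size alone. In the muscle-rich libraries alone, an alternative chosen after seeing the data, Ngp was at -0.014 and Retnlg at -0.036. With each library left out in turn, Camp ranged from -0.13 to 0.060, Ngp from -0.079 to 0.064, Lcn2 from -0.081 to 0.016, Chil3 from -0.17 to 0.13, S100a9 from -0.12 to 0.0069 and Retnlg from -0.068 to 0.14. The cause was not tested.

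The count of all genes called was 13 in edgeR, 845 in DESeq2, 20 in limma-voom, 20 with RLE scaling, 3 with the muscle covariate and 103 in the muscle-rich libraries. It was 0 to 292 with 1 library left out: 292 without Control 3, 89 without Control 4, 8 without BMAd-DTA 3, 3 without BMAd-DTA 4 and 0 without Control 1, Control 2, BMAd-DTA 1 or BMAd-DTA 6. No paired analysis was possible because the labels give no replicate numbers shared between the genotypes. With 4 Control libraries the 95% intervals above are wide, and true differences anywhere inside them remain compatible with the data.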
